A study of Mus musculus with 4 samples.

Results

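Meningeal fibroblasts are the matrix-producing cells of the pia and arachnoid, the thin membranes that cover the hippocampus and follow its larger vessels inward. They lay down collagens and small leucine-rich proteoglycans, carry out retinoic acid and prostaglandin synthesis, release growth factors into the cerebrospinal fluid and hold transporters that clear solutes from it. The data described here are 9 genes of this kind, of 23466 gene symbols in the table: the proteoglycan genes Dcn, Lum, Fmod and Ogn, the enzyme genes Ptgds and Aldh1a2, the growth factor gene Igf2, and the transporter genes Slc6a13 and Slc22a6. They were picked by name, with the difference between mutant and wild-type libraries of this table already known for some of them, so that this difference is given for them as a description and not as a test. Each gene was represented by its record with the highest mean over the 4 libraries, and the 9 genes had 12 records in all.

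RNA came from frozen hippocampus of mice of the C57BL/6N strain at postnatal day 30, as ribosome-depleted total RNA. Mutants 38 and 39 carried Atp6ap2Camk2aCre/0, a conditional mutation of Atp6ap2, an accessory subunit of the vacuolar proton pump, and wild-types 11 and 73 were the controls (2 libraries per group). Camk2a-Cre is a recombinase under a promoter of forebrain excitatory neurons, not of fibroblasts. The labels name the mutants ko in the titles and conditional het in another field, and the controls are given only as wt. The targeted gene, Atp6ap2, was at 2312 (wild-type 11), 2637 (wild-type 73), 2551 (mutant 38) and 2522 (mutant 39) scaled read equivalents, a unit explained below (log2 difference 0.04 ± 0.10 SE, n = 2 per group), so the summed transcript showed no drop in the mutants.

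A scaled read equivalent is the number of aligned bases over a transcript, scaled between libraries by the authors, divided by the 42 bases of 1 read. Depth ran from 10015449 read equivalents before scaling in wild-type 73 to 18328240 in wild-type 11. Markers of hippocampal neurons were plentiful in each library (Slc17a7, the vesicular glutamate transporter of cortex and hippocampus, had 14936 to 18476). Of 9 such markers, both mutants lay below both wild-types for 3 and above for 0, beside 16.5% and 16.8% of all genes. Their median log2 difference was -0.05. The libraries also differed in choroid plexus, the epithelium that secretes cerebrospinal fluid: all 17 of its markers were higher in wild-type 11 and mutant 38 than in wild-type 73 and mutant 39. Their summed level was 75496 in wild-type 11, 7542 in wild-type 73, 125810 in mutant 38 and 7837 in mutant 39, and no marker was at 0. That division cuts across genotype, and values within each pair, or from a fit with the mean choroid plexus marker level as a covariate, are given beside several of the results below. RNA was taken from whole tissue, in which fewer cells of a type and less RNA per cell cannot be told apart.

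All 9 genes were read in every library, from 46.0 read equivalents before scaling for Lum in wild-type 73 to 13219 for Ptgds in wild-type 11. Counting error alone was therefore 14.8% (SD) for that value of Lum and 0.870% for that of Ptgds. Per kilobase of transcript, Ptgds stood far above the rest at 10246 ± 1957 scaled read equivalents (SD over 4 libraries). Dcn followed at 369 ± 201 per kilobase and Igf2 at 278 ± 172. Slc6a13 had 93.0 ± 27.5, Ogn 79.9 ± 23.8, Aldh1a2 60.5 ± 16.1, Fmod 58.6 ± 15.8, Lum 41.4 ± 18.7 and Slc22a6 31.4 ± 11.3 per kilobase. Below Ptgds, each gene in this order overlapped the next over the 4 libraries. The lengths are those of the matching GENCODE transcripts and can differ from the gene models behind the table.

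**Figure D1:**
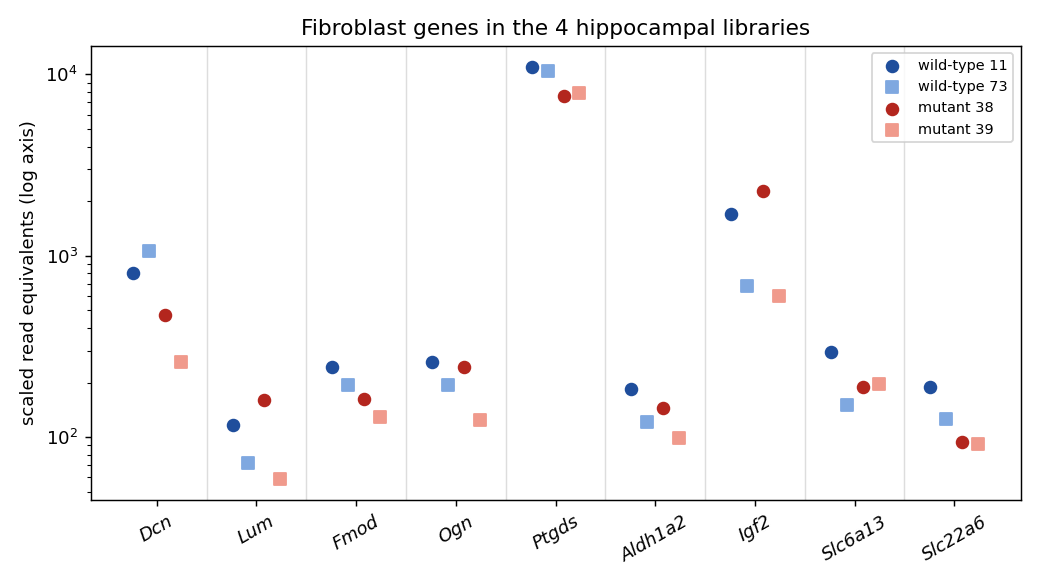
Scaled read equivalents (log axis) of the 9 genes in each library; blue points are wild-types, red points mutants, circles the choroid plexus-rich libraries and squares the others. Dcn, Fmod, Ptgds and Slc22a6 have both blue points above both red ones, while Igf2 and Lum have both circles above both squares.

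Both mutants lay below both wild-types for 4 of the 9 genes, Dcn, Ptgds, Slc22a6 and Fmod, and above them for 0. Over all 18127 genes tested, 16.5% lay below in that way and 16.8% above. None of the 9 passed the limma test with Benjamini-Hochberg adjustment, in which 1 gene, or 0.00552%, passed over all genes in either direction, and the same 4 genes had an unadjusted p below 0.05 on the lower side, as did 1.75% of all genes. In the fit with the choroid plexus covariate, which leaves 1 residual degree of freedom, 113 genes passed in all, Dcn and Ptgds among them. Because this contrast was in view when the genes were picked, nothing is read from these counts and calls. The median log2 difference of the 9 genes was -0.36, beside 0.01 over all genes tested.

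Dcn encodes decorin, a proteoglycan that binds collagen fibrils and transforming growth factor beta. Wild-type 11 held 801 and wild-type 73 1059 of its scaled read equivalents, mutant 38 held 473 and mutant 39 259. The groups did not overlap, and the lower wild-type was 1.69-fold above the higher mutant. The mutant mean was 39.3% of the wild-type mean, a log2 difference of -1.39 ± 0.28 (SE, n = 2 per group). Within the choroid plexus-rich pair mutant 38 had 0.590 of the level of wild-type 11, and within the other pair mutant 39 had 0.244 of that of wild-type 73. The size of the difference rested on single libraries: it was -0.96 without mutant 39 and -1.83 without mutant 38.

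Dcn has a pair of records with similar values. The record NM_001190451 had 50.3 and 41.0 read equivalents more than NM_007833 in wild-types 11 and 73, and 22.1 and 20.4 more in mutants 38 and 39. This net difference between the records was thus smaller for each mutant than for either wild-type. It made up 3.87% (wild-type 73) to 7.88% (mutant 39) of the higher record. Which reads the records share was not tested, so the net difference is not a separate measure of Dcn.

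Lum encodes lumican, another collagen-binding proteoglycan, and is the next protein-coding gene to Dcn on chromosome 10. Its library pattern was another one, at a scaled level of 116 in wild-type 11 and 71.8 in wild-type 73, against 159 in mutant 38 and 58.6 in mutant 39. The choroid plexus-rich library was the higher one in each group, and the groups overlapped. The log2 difference was 0.08 ± 0.47 (SE, n = 2 per group), and leaving out mutant 38 gave -0.63, leaving out mutant 39 0.80. The ratio of Dcn to Lum was 6.90 and 14.8 in the wild-types (11, 73) against 2.97 and 4.42 in the mutants (38, 39). Dcn alone already separated the groups, and the ratio was chosen after values were seen, so it adds no support. Of the other genes beside them, Epyc, the proteoglycan gene of growth cartilage, had 32.5 and 46.2 in the wild-types and 49.4 and 36.8 in the mutants. Kera, the proteoglycan gene of the cornea, had 0.676 to 3.61.

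Fmod encodes fibromodulin, which regulates collagen fibril thickness. In scaled read equivalents, wild-types 11 and 73 had 245 and 195 where mutants 38 and 39 had 163 and 129. The groups did not overlap, although the lower wild-type was only 1.20-fold above the higher mutant. The log2 difference was -0.59 ± 0.20 (SE, n = 2 per group), and the mutant had 0.665 of the wild-type level within the choroid plexus-rich pair and 0.659 within the other. The nearest genes on chromosome 1 differed from it. Prelp, a proteoglycan gene, had 484 and 323 in wild-types and 543 and 214 in mutants. Btg2, an antiproliferative early response gene on the other side, had 533 and 465 in wild-types and 880 and 745 in mutants (log2 difference 0.70 ± 0.14 SE, limma adjusted p = 0.581). Optc, which encodes opticin and lies beyond Prelp, was lower in both mutants, with 6.68 and 6.25 in wild-types and 3.38 and 3.03 in mutants. These values rest on few reads and are too near the floor to set beside those of Fmod.

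Ogn encodes osteoglycin, also called mimecan, a proteoglycan of connective tissue. Its level in scaled read equivalents was 259 in wild-type 11 and 193 in wild-type 73, against 244 in mutant 38 and 124 in mutant 39. The groups overlapped, mutant 39 alone lying below both wild-types. The log2 difference was -0.36 ± 0.32 (SE, n = 2 per group) and leaving out mutant 38 gave -0.84, leaving out mutant 39 0.13. Ogn sits in a row of related genes on chromosome 13, where Omd had 23.7 and 18.4 in wild-types and 16.6 and 17.2 in mutants, and Aspn had 30.1 and 29.5 in wild-types and 29.4 and 20.7 in mutants. Ecm2, the fourth of that row, had 177 and 105 in wild-types and 184 and 63.7 in mutants.

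Over the 12 other small leucine-rich proteoglycan genes, 0 passed in limma and 0 had an unadjusted p below 0.05. Their median log2 difference was -0.28, and 8 of the 12 were below 0. Both mutants lay below both wild-types for 4 of them (Optc, Nyx, Omd and Aspn) and above for 0, beside 16.5% and 16.8% of all genes. Optc, the member of this list with the smallest p-value, had only 3.03 to 6.68 read equivalents. Bgn, which encodes biglycan, the closest relative of decorin, had 242 and 177 in wild-types and 284 and 163 in mutants, so that its groups overlapped as those of Lum did. The lowest library was mutant 39 for 8 of the 12, beside 22.6% of all genes.

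**Figure D2:**
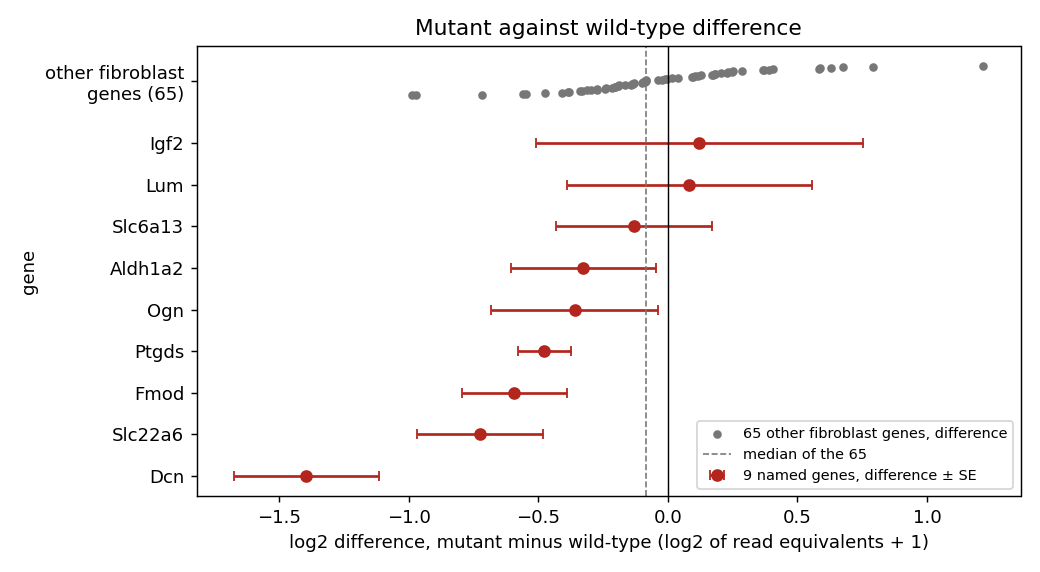
Log2 difference of mutant minus wild-type on log2(read equivalents + 1), with the standard error from limma (bars, n = 2 per group) for the 9 genes, and the differences of 65 other fibroblast genes as grey points. The 9 genes run from -1.39 for Dcn to 0.12 for Igf2; the dashed line is the median of the 65, at -0.08.

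Ptgds encodes lipocalin-type prostaglandin D synthase, an abundant protein of cerebrospinal fluid that is made by meningeal fibroblasts, choroid plexus and oligodendrocytes. Wild-type 11 held 11041 and wild-type 73 10441 of its scaled read equivalents, mutant 38 held 7593 and mutant 39 7851. The spread within each group was small (wild-type mean 10741 ± 425, mutant mean 7722 ± 183; SD over 2 libraries), and the groups did not overlap. The mutant mean was 71.9% of the wild-type mean, a log2 difference of -0.48 ± 0.10 (SE, n = 2 per group). The difference moved little when single libraries were left out, between -0.52 and -0.44. Ptgds did not follow the choroid plexus markers: the choroid plexus-rich libraries had 1.02-fold the level of the others on average.

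Oligodendrocytes also make Ptgds, and their markers had higher values in the mutants. Of 15 myelinating oligodendrocyte markers, 0 passed in limma, while 9 had an unadjusted p below 0.05 on the higher side (2.18% of all genes) and 12 had both mutants above both wild-types (16.8% of all genes). Their summed level was 100999 in wild-type 11, 71502 in wild-type 73, 123690 in mutant 38 and 109358 in mutant 39, with no marker at 0.

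Of 20 other prostaglandin pathway genes, 0 passed in limma and 0 had an unadjusted p below 0.05, and their median log2 difference was 0.08. Ptgs2, the inducible cyclooxygenase that makes the substrate of Ptgds, had 413 and 404 in wild-types and 473 and 535 in mutants (0.30 ± 0.13 SE, n = 2 per group; limma adjusted p = 0.989). Ptgs1, the constitutive cyclooxygenase, had 198 and 227 in wild-types and 248 and 259 in mutants. Both cyclooxygenase genes thus had their higher values in the mutants. Over the list of 20, both mutants lay above both wild-types for 3 genes and below for 2, beside 16.8% and 16.5% of all genes. Hpgds, the other prostaglandin D synthase, had 146 and 114 in wild-types and 135 and 136 in mutants, and its groups overlapped.

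Aldh1a2 encodes a retinaldehyde dehydrogenase that makes retinoic acid in the meninges. In scaled read equivalents, wild-types 11 and 73 had 184 and 122 where mutants 38 and 39 had 144 and 98.6. The groups overlapped, but within each choroid plexus pair the mutant was lower, at 0.783 of the wild-type in the rich pair and 0.811 in the other. The log2 difference was -0.33 ± 0.28 (SE, n = 2 per group) and lay between -0.62 (wild-type 73 left out) and -0.03 (wild-type 11 left out). Of 19 other retinoid genes 0 passed in limma. With an unadjusted p below 0.05 there were 2 on the lower side and 1 on the higher side (1.75% and 2.18% of all genes). Their list's median log2 difference was -0.28. Both mutants lay below both wild-types for 8 of the 19 retinoid genes and above for 2, beside 16.5% and 16.8% of all genes. Of the 8, Lrat and Cyp26c1 had at most 7.52 read equivalents. The lower wild-type was 1.00-fold the higher mutant for Rarb and 1.64-fold for Rxrg. The receptor gene Rxrg had 49.4 and 119 in wild-types and 30.2 and 15.5 in mutants (-1.78 ± 0.50 SE, limma adjusted p = 0.989), and Rarg had 163 and 149 in wild-types and 108 and 118 in mutants. Aldh1a1, a related dehydrogenase gene, had 829 and 645 in wild-types and 883 and 993 in mutants.

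Igf2 encodes insulin-like growth factor 2, an imprinted growth factor that choroid plexus and leptomeninges release. Its level in scaled read equivalents was 1700 in wild-type 11 and 680 in wild-type 73, against 2272 in mutant 38 and 602 in mutant 39. The choroid plexus-rich libraries had 3.10-fold the mean level of the others, the largest such ratio among the 9 genes, and the genotype groups overlapped. The log2 difference was 0.12 ± 0.63 (SE, n = 2 per group), and it ran from -0.84 without mutant 38 to 1.08 without mutant 39. Its 3 records had nearly equal values, the highest and the lowest differing by 0.150% (mutant 39) to 1.47% (wild-type 11). In GENCODE, exons of Igf2 overlap those of Igf2os on the opposite strand and of Gm49394 on the same strand, and since the strand setting of the counting is not given in the sources used here, reads of these genes may be included.

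Igfbp2, which encodes a binding protein of Igf2, ran beside it with 1082 and 457 in wild-types and 1273 and 278 in mutants. The ratio of Igf2 to Igfbp2 stayed between 1.49 (wild-type 73) and 2.16 (mutant 39). Of 16 tested genes of the insulin-like growth factor pathway, 0 passed in limma. An unadjusted p below 0.05 was found for 2, both lower (1.75% of all genes on the lower side). One was Igfbp3, another binding protein gene, with 274 and 304 in wild-types and 214 and 149 in mutants (-0.69 ± 0.21 SE, limma adjusted p = 0.989). The other, Igf2bp1, had 75.6 in wild-type 11 alone and 1.23 to 3.68 in the remaining libraries. The list's median log2 difference was 0.06.

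Slc22a6 encodes the organic anion transporter OAT1, which moves organic acids out of cerebrospinal fluid. Wild-type 11 held 188 and wild-type 73 126 of its scaled read equivalents, mutant 38 held 94.4 and mutant 39 91.2. The groups did not overlap, and the mutants lay close together (mean 92.8 ± 2.28, against a wild-type mean of 157 ± 44.2; SD over 2 libraries). The log2 difference was -0.72 ± 0.24 (SE, n = 2 per group), with 0.501 of the wild-type level within the choroid plexus-rich pair and 0.724 within the other. It was -0.44 without wild-type 11 and -1.01 without wild-type 73. Slc22a8, which encodes the related transporter OAT3 and is the neighbour of Slc22a6 on chromosome 19, had 201 and 192 in wild-types and 211 and 154 in mutants. The ratio of Slc22a6 to Slc22a8 was 0.939 and 0.654 in the wild-types and 0.448 and 0.590 in the mutants.

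Slc6a13 encodes the GABA transporter GAT2. In scaled read equivalents, wild-types 11 and 73 had 295 and 151 where mutants 38 and 39 had 189 and 197. Both mutants lay between the wild-types, and the log2 difference was -0.13 ± 0.30 (SE, n = 2 per group), beside -0.61 with wild-type 73 left out and 0.35 with wild-type 11 left out. Its neighbour on chromosome 6, Slc6a12, a betaine and GABA transporter gene, had 44.5 and 38.9 in wild-types and 38.2 and 23.1 in mutants (-0.47 ± 0.35 SE, limma adjusted p = 0.989). Of 15 other solute transporter genes, 0 passed in limma and 0 had an unadjusted p below 0.05, with a median log2 difference of 0.04.

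Promoter windows from RefSeq (GRCm38.p6, 250 bases before to 50 after the annotated start) were found for 7 of the 9 genes. They are printed for the genes with entries whose groups did not overlap, to show what their start regions hold. Capitals mark matches on either strand to TATAAA (the TATA box), TGANTCA (the AP-1 site), CAGCTG (an E-box) and TGTTTA (the core of forkhead sites), motifs chosen with the sequences at hand.
Ptgds, chr2:25469700-25469999, minus strand: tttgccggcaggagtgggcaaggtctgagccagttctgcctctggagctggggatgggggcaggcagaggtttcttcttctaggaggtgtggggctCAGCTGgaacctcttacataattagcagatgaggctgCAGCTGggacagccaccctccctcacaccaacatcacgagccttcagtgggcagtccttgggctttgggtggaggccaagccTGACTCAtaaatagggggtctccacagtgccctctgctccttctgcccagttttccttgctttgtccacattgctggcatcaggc
Fmod, chr1:134037004-134037303, plus strand: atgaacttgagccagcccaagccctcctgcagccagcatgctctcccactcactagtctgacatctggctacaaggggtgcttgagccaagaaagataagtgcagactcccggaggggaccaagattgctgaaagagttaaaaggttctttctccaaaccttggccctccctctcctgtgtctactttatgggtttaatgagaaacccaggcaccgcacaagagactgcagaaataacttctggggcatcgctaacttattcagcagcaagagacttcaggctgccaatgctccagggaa
Slc22a6, chr19:8617746-8618045, plus strand: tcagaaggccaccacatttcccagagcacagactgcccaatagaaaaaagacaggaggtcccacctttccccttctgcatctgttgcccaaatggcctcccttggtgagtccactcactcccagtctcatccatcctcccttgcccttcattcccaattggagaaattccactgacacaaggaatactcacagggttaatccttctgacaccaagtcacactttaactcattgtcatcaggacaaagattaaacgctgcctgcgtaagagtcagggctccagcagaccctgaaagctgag
The Ptgds window held the E-box at 2 places, 154 and 117 bases before the start, and the AP-1 letters 35 bases before it. The windows of Fmod and Slc22a6 held none of the 4 motifs. Over 32851 promoter windows of the same length, 16.3% held the E-box, 7.81% the AP-1 letters, 13.6% the TATA box and 13.4% the forkhead core. A match is a description of the letters in the window. The files give no binding data.

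Across the 9 genes, mutant 39 was the lowest library for 7 (22.6% of all genes) and wild-type 11 the highest for 6 (21.1% of all genes). The exceptions to the first were Ptgds, lowest in mutant 38, and Slc6a13, lowest in wild-type 73. The choroid plexus-rich libraries were both above the other 2 libraries for 4 genes, Lum, Igf2, Aldh1a2 and Ogn, beside 20.6% of all genes. Within the choroid plexus-rich pair the mutant was below the wild-type for 7 of 9 genes. It was so within the other pair for 8 of 9, and in both pairs for 6. Shares over all genes were not counted for these pairs. Nothing is read from these numbers, because the contrast was in view when the genes were picked.

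**Figure D3:**
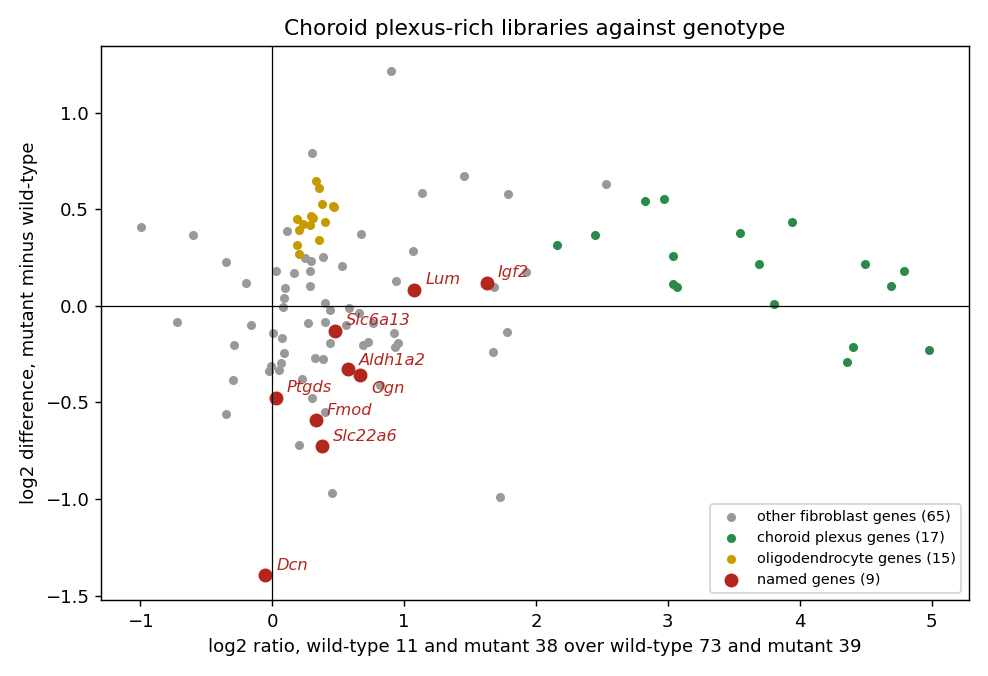
Each point is a gene; the horizontal axis is the log2 ratio of mean read equivalents in the choroid plexus-rich libraries (wild-type 11 and mutant 38) over the other 2, and the vertical axis the log2 difference of mutant minus wild-type. Dcn and Ptgds lie near 0 on the horizontal axis and low on the vertical one, Igf2 and Lum lie right of 0 and near 0 vertically, and choroid plexus genes lie far to the right.

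Other genes of meningeal and perivascular fibroblasts were taken from a list that holds none of the 9. Of its 65 measured genes, 0 passed in limma, 1 had an unadjusted p below 0.05 on the lower side and 2 on the higher side (1.75% and 2.18% of all genes). The median log2 difference was -0.08, and 38 of the 65 were below 0. Both mutants lay below both wild-types for 9 genes and above for 6, beside 16.5% and 16.8% of all genes. The median was 0.13 within the choroid plexus-rich pair and -0.14 within the other, and it was -0.36 without mutant 38 and 0.23 without mutant 39. The lowest library was mutant 39 for 34 of the 65, beside 22.6% of all genes. The choroid plexus-rich libraries were both above the others for 35 of the 65, beside 20.6% of all genes. The summed level was 22649 in wild-type 11, 18424 in wild-type 73, 25498 in mutant 38 and 18273 in mutant 39. Genes with high values weigh most in this sum, such as Igfbp5 (3674 in wild-type 11) and Apod (2743). RNA of other cells in the whole tissue may be included, and the cell source of the list's genes was not tested.

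Among these genes, Fbln1, which encodes the matrix protein fibulin 1, had 273 and 233 in wild-types and 209 and 157 in mutants (-0.47 ± 0.19 SE, limma adjusted p = 0.989). Gpc3, a heparan sulphate proteoglycan gene, had 97.6 and 101 in wild-types and 82.9 and 30.3 in mutants, the lowest value standing apart in mutant 39. On the other side, Dpp4, a membrane peptidase gene, had 72.0 and 58.7 in wild-types and 126 and 102 in mutants (0.79 ± 0.24 SE, limma adjusted p = 0.989). Fstl1, which encodes a secreted follistatin-like protein, had 587 and 586 in wild-types and 826 and 717 in mutants.

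The fibrillar collagen genes that define fibroblasts did not separate the groups. Col1a2 had 581 and 359 in wild-types and 622 and 276 in mutants, and Col1a1 had 247 and 188 in wild-types and 328 and 108 in mutants. As a ratio to Col1a2, Dcn was 1.38 and 2.95 in the wild-types and 0.760 and 0.939 in the mutants. Zic1, a zinc finger transcription factor gene of meninges and of some brain regions, had 1243 in mutant 38 and 170 to 330 in the other libraries. It was the list's only gene to pass when mutant 39 was left out (limma adjusted p = 0.00716), a call that rested on mutant 38 alone.

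Markers of cells that lie beside fibroblasts were read in the same way. Of 13 mural cell markers, 0 passed in limma and 1 had an unadjusted p below 0.05, on the higher side (2.18% of all genes). This was Kcnj8, a potassium channel gene of pericytes, with 45.9 and 43.7 in wild-types and 75.2 and 69.2 in mutants. Of 12 endothelial markers, 8 perivascular macrophage markers and 7 ependymal markers, 0 passed in limma and 0 had an unadjusted p below 0.05. Their median log2 differences were 0.11, 0.19 and 0.04, and that of mural cells 0.05. Summed endothelial markers were at 4345 and 4199 in the wild-types and 4793 and 4286 in the mutants. Ependymal markers, from the cells that line the ventricles, divided with the choroid plexus, at 925 in wild-type 11 and 1029 in mutant 38 against 507 in wild-type 73 and 480 in mutant 39. No marker of these 4 lists was at 0 in any library, and their part in the differences of the 9 genes was not tested.

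The genes with the library pattern nearest to that of Dcn were found among 13020 others with a mean of at least 50 read equivalents, by the root mean square distance of log2 values centred on each gene's mean over 4 libraries. The nearest was Cpne2, a calcium-dependent membrane-binding protein gene, at a distance of 0.21, at 688 in wild-type 11, 699 in wild-type 73, 410 in mutant 38 and 257 in mutant 39. Next came the amino acid transporter gene Slc7a3 (0.28), the peptide receptor gene Glp2r (0.30), Gpc3 (0.31), the nuclear receptor gene Nr2f2 (0.32), the keratin gene Krt2 (0.34), the membrane glycoprotein gene Tpbg (0.34) and 5830415F09Rik (0.35). Glp2r had 96.2 and 101 in wild-types and 33.7 and 31.0 in mutants. Of the fibroblast list, Gpc3 was among these 8. The likeness of the 8 to Dcn comes from how they were picked, over the same 4 libraries, and nothing is read from it. The nearest of the other 8 genes described here was Fmod, at 0.51, with 87 other genes nearer to Dcn, while Lum stood at 0.86 and Igf2 at 1.04.

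**Figure D4:**
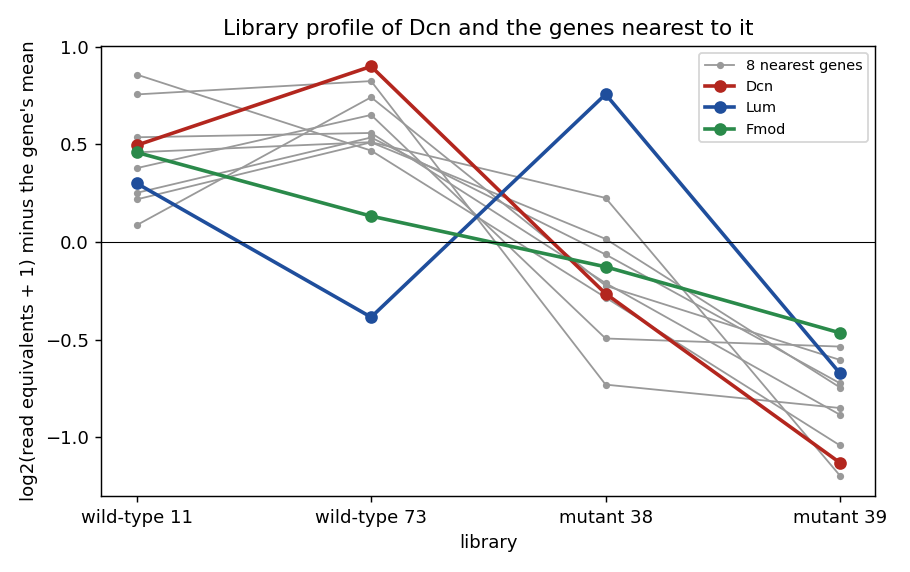
Log2(read equivalents + 1) minus the gene's mean over the 4 libraries, by library, for Dcn (red), Fmod (green), Lum (blue) and the 8 genes nearest to Dcn (grey); lines only join the points of a gene. Dcn is above 0 in both wild-types and lowest in mutant 39, as are the grey genes, which were picked for this likeness. Lum is highest in mutant 38 and below 0 in wild-type 73.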

How the data were processed

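Per the labels' protocols, libraries were made from ribosome-depleted total RNA with random primers, a strand-marking step and single-end reading. The submitters' processing notes name GSNAP, DESeq2 and mm9. The counter, its strand setting and the annotation are not stated in the sources used here. The authors deposited 31315 transcript records with 1 signal value per library and 1 p-value each, and the p-value column was not used. In each library 100% of the deposited signal values were whole multiples of 1 step, within 0.05 of a step, and values were divided by 42 bases per read. The signal is not per length, and reads shared by records count in each. Every pair of libraries differed beyond sampling noise (chi-square per degree of freedom 8.78 to 19.3). Since the labels name no separate animals, the spread behind each p-value is that between samples, which may be technical.

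Genes with at least 1 read equivalent in 2 libraries entered limma 3.58.1 (R 4.3.3) as log2(read equivalents + 1), with group as the only term (variance trend, two-sided, Benjamini-Hochberg at 0.05 over 18127 genes), after a check on simulated data. Fold changes on this scale understate changes of low genes. With 2 against 2 libraries an exact permutation test cannot go below 0.333. The 9 genes and all lists were chosen with earlier results of these data known. Genes named from a list were up to 4 with the smallest p-values, set defining markers and neighbours, and not all are printed. Ratios between genes were chosen after values were seen. Tables and plots were made in Python 3.11.15 with matplotlib 3.10.9. Alternatives covered pseudocount, filter, unit, record choice, variance prior, scaling, single libraries and choroid plexus content.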

Additional observations from a re-analysis of the deposited data

How the results depend on the processing

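Over 14 alternatives, 5 of the 9 genes (Dcn, Ptgds, Slc22a6, Aldh1a2 and Fmod) had a log2 difference below 0 each time. Ogn kept its sign in 13, Slc6a13 in 12, and Lum and Igf2 in 11. These counts do not measure robustness. Changes of filter and variance prior leave a difference as it is. For Dcn, Ptgds, Slc22a6 and Fmod, both mutants lay below both wild-types, which fixes the sign when libraries are left out or paired. Leaving out single libraries, the number of genes that passed over all genes ran from 1 (without wild-type 73) through 7 (without mutant 39) and 8 (without mutant 38) to 37 (without wild-type 11), that of the 65 other fibroblast genes from 0 to 1 (Zic1, without mutant 39), and the median of the latter from -0.36 without mutant 38 to 0.23 without mutant 39. With a robust variance prior 12 genes passed, and with the mean choroid plexus marker level as a covariate (1 residual degree of freedom) 113. Dcn and Ptgds were among the genes that passed with that covariate. Nothing is read from this, because the 9 genes were picked with this contrast known. The cause of the changes between fits was not tested. In the fits without 1 library the lone sample was taken to vary like the other group. No paired analysis was possible because the groups share no replicate numbers. Depth limits the lowest values, above all in wild-type 73.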
